A study of Bos taurus with 4 samples.

Results

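The myosin light chain genes described here are MYL6, MYL6B, MYL9, MYL12A and MYL12B, measured in immature bovine oocytes. They were found as every probe of the array whose platform gene symbol is one of these 5, which gave 5 of the 15216 gene symbols and 18 of the 43794 bovine probes: 11 for MYL6, 4 for MYL12A and 1 each for MYL6B, MYL9 and MYL12B. The filter asked for a signal above background on 3 or more of the 4 arrays, in either fraction and not necessarily the same one on each array, and 17 of the 18 probes passed it, against 19453 of all probes. The family was chosen by the ratio itself: the MYL6 probes had high ratios of A150 over A- on these same arrays. The ratios of the 5 genes are therefore given as a description, with no test.

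The series parted the RNA of germinal vesicle oocytes, which are arrested before meiosis resumes, by the length of the poly(A) tail. A150 is the fraction eluted from the beads at 75 °C, labelled as carrying tails of 150 nucleotides or more, and A- is the unbound fraction, labelled as carrying tails of 50 nucleotides or fewer. The labels also give a first elution at 42 °C, which is neither A150 nor A-. A150 and A- together therefore need not hold all the RNA of a pool. Each of 4 pools held 200 Holstein oocytes freed of their cumulus cells, from slaughterhouse ovaries carried on ice. Both fractions of a pool were amplified and hybridised to 1 two-colour array, with A150 labelled in Cy5 on arrays 1 and 2. On arrays 3 and 4 the dyes were swapped, so that A150 was in Cy3. Every ratio below is the normalized log2 signal of A150 minus that of A-, and it is positive where A150 is relatively higher. Each array is centred, so a ratio is relative to the other probes of that array and is no amount of RNA.

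Myosin II is the motor that pulls on actin filaments. Each of its heavy chains carries an essential light chain, which stiffens the lever arm, and a regulatory light chain, whose phosphorylation switches the motor on. MYL6 encodes the essential light chain of non-muscle and smooth muscle myosin, and MYL6B a related essential chain. MYL12A, MYL12B and MYL9 encode regulatory chains. In mouse oocytes myosin II works at the cortex, in spindle positioning and in the extrusion of the polar body. In the RefSeq annotation of the cattle assembly ARS-UCD2.0, MYL6 and MYL6B lie next to each other with 0 protein-coding genes between them, and so do MYL12A and MYL12B.

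A spot was called above background when its mean brightness exceeded the negative-control mean by more than 2 SD in that channel. That level was 330, 2467, 1079 and 484 scanner units for A150 on arrays 1 to 4, and 1195, 2771, 1610 and 631 for A-. The share of probes above it was 10% to 60.6% in A150, lowest on array 2, and 22% to 48.7% in A-. Across kept probes the ratios of 2 arrays correlated at 0.12 to 0.32, over probes that share their arrays. All 13 oocyte marker genes on the array had a signal above background in 1 and the same fraction on at least 3 arrays, among them GDF9, ZP3 and FIGLA. Of 18 cumulus and granulosa markers 3 did (SERPINE2, STAR and PTX3), while FSHR, CYP19A1, AMH and FOXL2 did not. Over the best probes of this list the summed spot means ranged from 30756 to 41897 in A150 and from 24618 to 42845 in A-, sums that include background.

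MYL6 stood on the A150 side by the mean of all 11 of its probes, where 48.2% of kept probes had a positive mean. The mean ratio of a probe ran from 1.07 to 3.23, and 8 of the 11 means were above 2, which holds for 2.13% of all kept probes. The median over the 11 probes was 3.21, 1.76, 3.0 and 2.31 on arrays 1 to 4, or 2.57 ± 0.66 (SD, n = 4), which is 5.94-fold. It was lowest on array 2, where the background level was highest in A150 and in A-. The part of background in that low value was not tested. The granulosa marker SERPINE2 lay in the same range, with ratios of 2.43, 1.88, 1.69 and 2.05 (mean 2.01 ± 0.31, limma adjusted p = 0.102) and both fractions above background on all 4 arrays. Of the 6 cumulus and granulosa markers with a kept probe, 3 had a positive mean and 3 a negative one (median 0.03). Those with a negative mean, CYP19A1, INHBA and VCAN, passed the background level on 1 or 2 arrays per fraction. PTX3, at 0.11, passed it on 3 arrays in A150 and 2 in A-. The ratios of these dim markers are uncertain. Besides SERPINE2, only STAR passed the level in A150 and in A- on every array. STAR had a mean of 0.40 ± 1.07, with further probes at -0.06 and 1.83. Whether SERPINE2 was typical of its list is therefore open. Of the 13 oocyte markers 9 had a positive mean (median 1.67), and before adjustment 7 on the A150 side and 1 on the A- side had a limma p under 0.05. The part of either cell type in the MYL6 ratio was not tested. Of the 44 single ratios 43 were positive, and 10 of the 11 probes were positive on all 4 arrays, against 12% of all kept probes. The authors' deposited table likewise had a positive value in 43 of the 44 cases, and its values ran from -0.16 to 3.10.

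**Figure D1:**
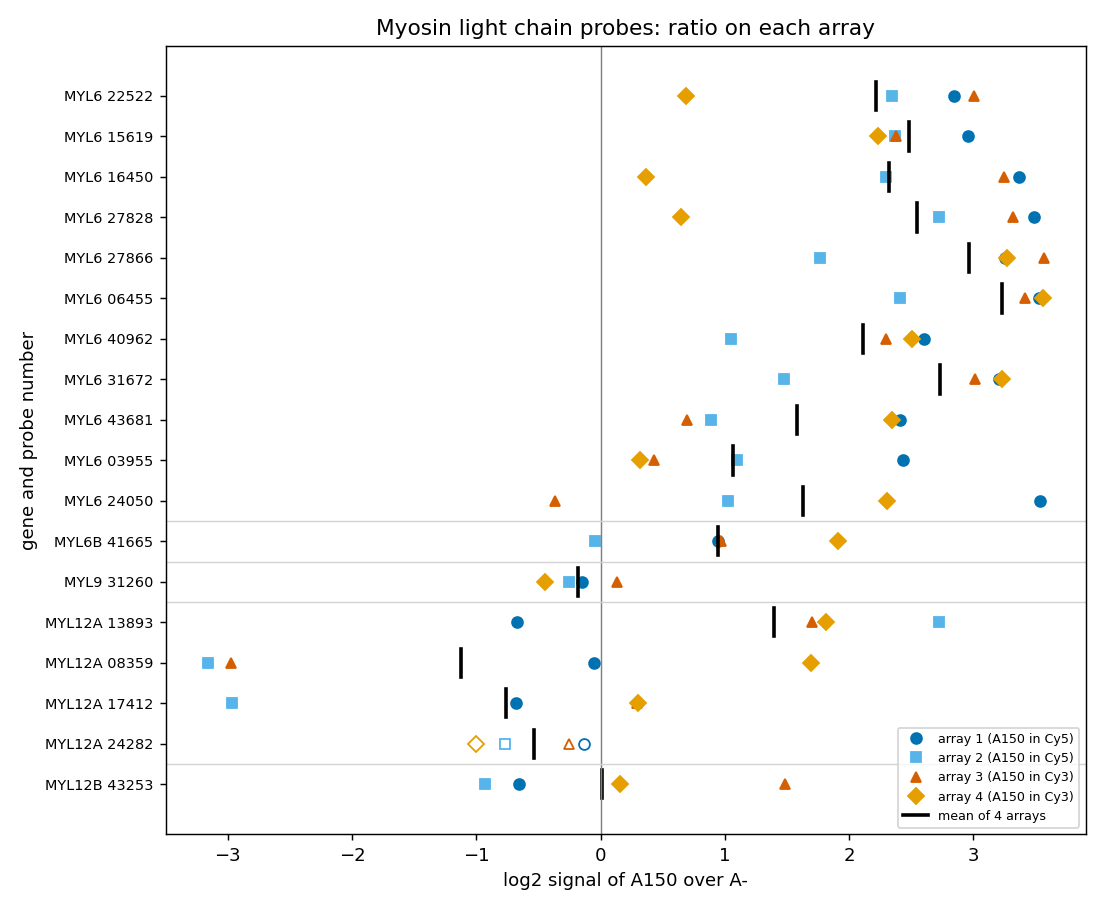
Log2 signal of A150 over A- (x axis) for each of the 18 probes (y axis, gene and probe number) on the 4 arrays, with the mean as a black bar and open symbols for the MYL12A probe that was not kept. The MYL6 points lie right of 0 with 1 exception at -0.37, whereas the 3 kept MYL12A probes spread from -3.16 to 2.72.

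The probe EMBV3_22522 had the highest average signal of the MYL6 probes over both channels and represents the gene below. Its spot means were 9824, 8663, 11886 and 8169 in A150 on arrays 1 to 4, against 1846, 2895, 1712 and 4460 in A-. A150 was the brighter fraction on each array and the gap was narrowest on array 4. Its ratios were 2.84, 2.34, 3.0 and 0.69, with a mean of 2.22 ± 1.06 (SD, n = 4), or 4.65-fold. A150 and A- each passed their background level on all 4 arrays. The probe EMBV3_15619 had spot means of 10292, 10372, 11504 and 8266 in A150, against 1795, 3104, 2173 and 1626 in A-. Here too A150 and A- passed their levels on every array, and the arrays differed least for this probe. Its ratios of 2.95, 2.37, 2.38 and 2.23 gave 2.48 ± 0.32 (SD, n = 4), or 5.59-fold. The median SD over arrays was 0.92 among MYL6 probes and 0.77 among all kept probes.

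A pair of further probes behaved like EMBV3_22522 on array 4. EMBV3_16450 had spot means of 8818, 7372, 10867 and 6139 in A150, against 1423, 2771, 1499 and 4070 in A-, and ratios of 3.36, 2.30, 3.25 and 0.37 (mean 2.32 ± 1.39). EMBV3_27828 had 8968, 5856, 9402 and 7357 in A150, against 1386, 2449, 1403 and 4089 in A-, and ratios of 3.49, 2.72, 3.32 and 0.65 (mean 2.54 ± 1.31). In these 3 probes the A- spot stood far above its background level of 631 on array 4 and nearer to the level on the other arrays. Their ratios were 0.37 to 0.69 on array 4, and 2.30 to 3.49 on arrays 1 to 3. The other 8 MYL6 probes had A- spot means of 666 to 1626 on array 4. The set was noticed in the data and was not tested. Its 3 spots lay in rows 102, 75 and 45 and columns 80, 171 and 33 of the slide, so they were not neighbours.

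A second set of MYL6 probes had high ratios on every array but the second. EMBV3_06455 had spot means of 8163, 4047, 9151 and 10393 in A150, against 1316, 2441, 1353 and 920 in A-. Its ratios of 3.53, 2.41, 3.42 and 3.56 gave the highest mean of any MYL6 probe, 3.23 ± 0.55 (9.37-fold). EMBV3_27866 had 8094, 4336, 11524 and 10267 in A150, against 1421, 2682, 1403 and 1077 in A-. All 4 of its ratios were positive, at 3.26, 1.76, 3.57 and 3.27 (mean 2.96 ± 0.81). EMBV3_31672 had 5128, 3765, 8908 and 7527 in A150, against 1201, 2767, 1480 and 844 in A-, and ratios of 3.21, 1.48, 3.01 and 3.23 (mean 2.73 ± 0.84). EMBV3_40962 had 5246, 4463, 6115 and 4671 in A150, against 1459, 3125, 1588 and 845 in A-, and ratios of 2.60, 1.05, 2.30 and 2.51 (mean 2.11 ± 0.72). Each of these 4 probes had its lowest ratio on array 2. For the first 3 of them A- was above background only on arrays 1 and 4, and for EMBV3_40962 on arrays 1, 2 and 4, so the size of the gap rests in part on A- spots at the background level.

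The 3 remaining MYL6 probes had the lowest mean ratios, and their A150 spots were dimmest on array 3. In A150 they were dimmer than the other 8 MYL6 probes on every array. Their brightest A150 spots were 3458, 2571, 1911 and 3373 on arrays 1 to 4. The dimmest of the other 8 were 5128, 3765, 6115 and 4671. EMBV3_43681 had spot means of 3252, 2571, 1911 and 3373 in A150, against 1276, 2801, 1625 and 719 in A-, and ratios of 2.41, 0.89, 0.70 and 2.34 (mean 1.58 ± 0.92). EMBV3_03955 had 3290, 2520, 1297 and 1857 in A150, against 1282, 2690, 1448 and 1227 in A-, and ratios of 2.43, 1.09, 0.43 and 0.32 (mean 1.07 ± 0.97). EMBV3_24050 had 3458, 2549, 950 and 2951 in A150, against 1015, 2732, 1273 and 666 in A-, and ratios of 3.54, 1.03, -0.37 and 2.31 (mean 1.63 ± 1.68). The one negative MYL6 ratio was that of EMBV3_24050 on array 3, where neither fraction was above background. On array 3 these 3 probes had ratios of -0.37 to 0.70, against 2.30 to 3.57 for the other 8. On array 2 the A- spot was the brighter one of the pair in all 3 before normalization, and the ratio was positive after it. The authors' deposited table also had positive values there, at 0.45, 0.55 and 0.52. This set too was noticed in the data and was not tested. Its 3 spots lay in rows 79, 52 and 145 of the slide, and in columns 140, 139 and 147 of 266. The other 8 MYL6 probes lay in columns 33 to 119 or 171 to 251. The part of slide position in the array 3 values was not tested.

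The low end of the MYL6 ratio is A-, which was close to background. In A150, 43 of the 44 MYL6 spots were above background, and in A- 28 were: 10 on array 1, 4 on array 2, 3 on array 3 and 11 on array 4. All 28 ratios with both fractions above background were positive, from 0.32 to 3.56. Without background correction the mean of the array medians was 1.90 in place of 2.57, so the direction held and the ratio was smaller. The part of probe position along the message in these differences was not tested, since the probe sequences were not used here.

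**Figure D2:**
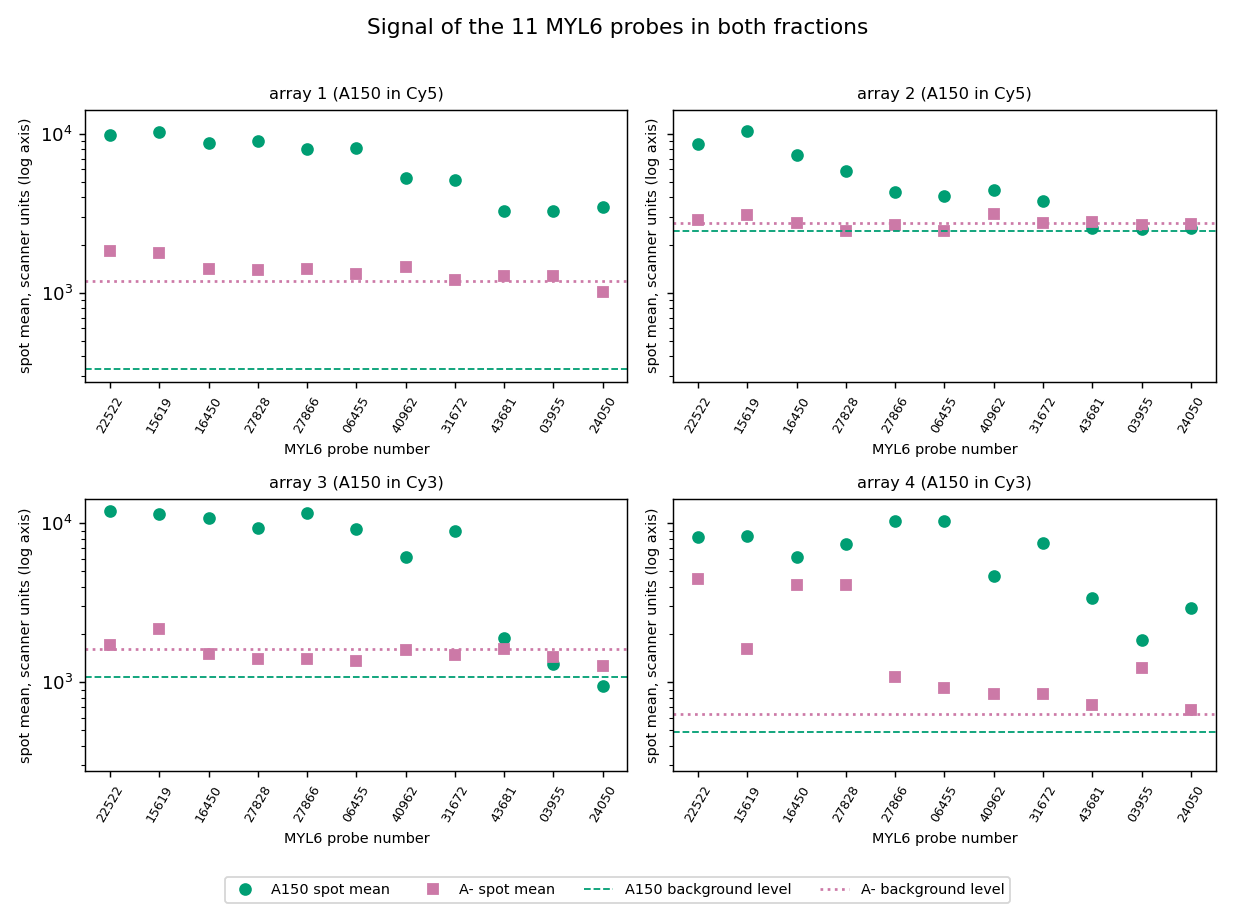
Spot mean in scanner units (y axis, log scale) of the 11 MYL6 probes (x axis) in A150 (circles) and A- (squares), 1 panel per array, with the background level of each fraction as a line. The 3 probes with A- spots of 4070 to 4460 on array 4 stand apart there, and A- lies near its level of 2771 on array 2.

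Whether the dye moved the ratio was tested with limma. The test uses the same ratios by which the family was chosen, so it is not independent of that choice. For EMBV3_22522 the mean ratio was 2.59 with A150 in Cy5 and 1.84 with A150 in Cy3, a difference of 0.75 (SE 0.95, adjusted p = 0.817). For EMBV3_03955 the difference was 1.39 (SE 0.63, adjusted p = 0.631), the largest among MYL6 probes. Over the 17 kept probes of the family, 0 passed at an adjusted p under 0.05, as did 0% of all 19453 kept probes. Without adjustment, 0 of the 17 and 1602 of the 19453 (8.24%) had a p under 0.05. Of the 17, 11 are probes of MYL6 on the same arrays, so they are not separate tests. No conclusion is drawn from that count. With 2 arrays in each orientation the intervals are wide.

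Among genes of the array that are covered by many probes, MYL6 had the highest median. There were 19 genes with 5 or more kept probes, and in 26.3% of them every probe had a positive mean. The median over probe means was 2.32 for MYL6, followed by 2.12 for NTPCR (6 probes), 1.72 for RPLP0 (12 probes), a protein of the ribosomal stalk, and 1.46 for CLTA (8 probes), a clathrin light chain. At the other end ATF2, a transcription factor gene with 6 probes, had -3.80. The SD between the probe means of 1 gene was 0.64 for MYL6, against a median of 0.79 over the 19 genes. MYL6 was chosen for this pattern, so its place is a description.

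**Figure D3:**
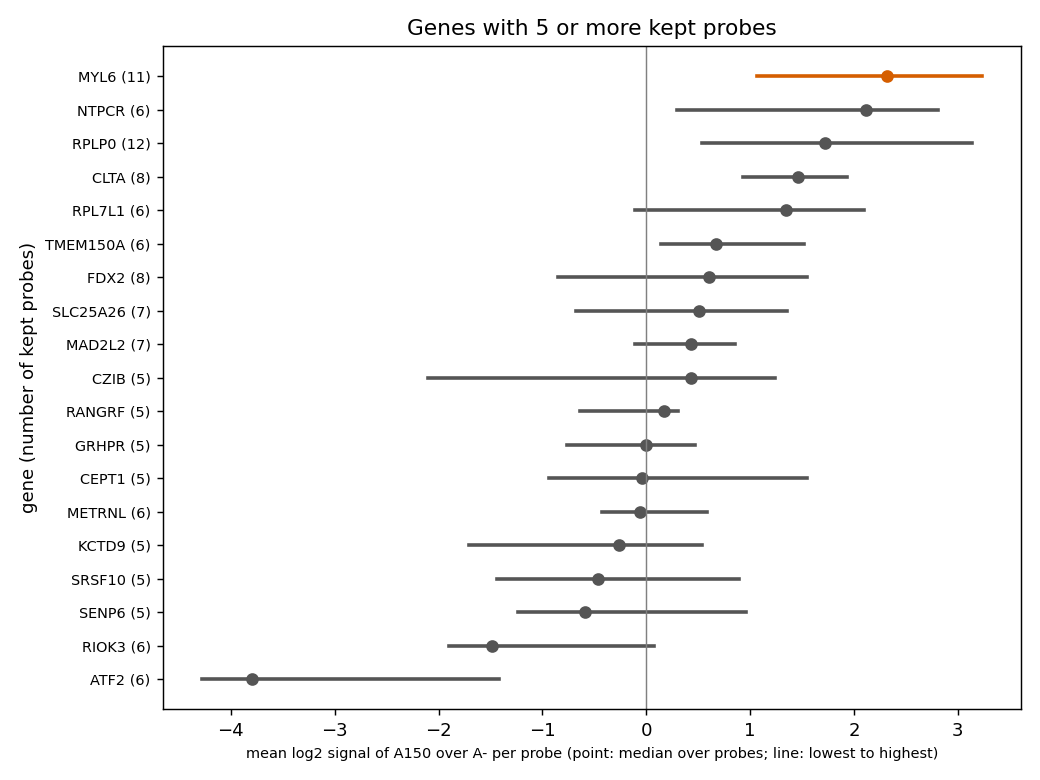
Mean log2 signal of A150 over A- per probe (x axis) for the 19 genes with 5 or more kept probes (y axis, number of probes in brackets). Points are medians over probes and lines run from the lowest to the highest probe; MYL6 runs from 1.07 to 3.23.

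Genes with a profile over the 4 arrays like that of EMBV3_22522 were sought among 7242 named genes, by the root mean square difference of the log2 ratios. The nearest was CFDP1, a chromatin-associated gene, with ratios of 3.04, 2.55, 2.93 and 0.49 and a difference of 0.18. It shared the high values of arrays 1 to 3 and the low value of array 4. Next came GPC3, a cell-surface proteoglycan gene (0.36), SOD2, the mitochondrial superoxide dismutase (0.37), TACC3, a spindle protein gene (0.38), and PRDX5, a peroxiredoxin gene (0.41). The median over all genes compared was 2.51. In CFDP1 the A- fraction was above background on 1 array only, in GPC3 and TACC3 on 2, in SOD2 on 3 and in PRDX5 on 4. On array 4 EMBV3_22522 had 0.69, against a median of 2.31 over the MYL6 probes. The likeness is therefore to this probe and not to MYL6 as a whole.

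MYL6B, the neighbouring essential light chain gene, had weak signals. Its only probe, EMBV3_41665, had spot means of 371, 1426, 1083 and 1133 in A150, against 1051, 2321, 1049 and 471 in A-. A150 was above background on arrays 1, 3 and 4, by a small margin on arrays 1 and 3, and A- was not well above background on any array. The ratios were 0.95, -0.04, 0.97 and 1.91, with a mean of 0.95 ± 0.80 (SD, n = 4). In the single channels, A- was set to no less than the lowest normalized signal of any A- spot above background on that array. The mean signals then place A150 1.87-fold higher, close to the 1.93-fold of the mean ratio. That value is no lower limit, since it is taken from the means and does not cover the spread of the arrays. On array 2 the A150 spot was itself below its level of 2467, and the ratio lay near 0.

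The regulatory light chain genes had ratios on both sides of 0. Of the 20 ratios of their 5 kept probes 9 were positive, and 0 of these probes had the same sign on all 4 arrays. Among all kept probes 12% were positive and 10.1% negative on all 4, and the signs were mixed in 77.9%, so mixed signs do not set these genes apart. MYL12A had 3 kept probes that went different ways. EMBV3_13893 had spot means of 6901, 19874, 17720 and 17740 in A150, against 9266, 3982, 4408 and 4727 in A-. It was higher in A150 on arrays 2 to 4 and lower on array 1, with ratios of -0.67, 2.72, 1.70 and 1.81 (mean 1.39 ± 1.45, SD, n = 4). EMBV3_08359 had 20633, 1540, 2790 and 32650 in A150, against 16758, 6519, 12182 and 10062 in A-. Its ratios of -0.05, -3.16, -2.97 and 1.69 (mean -1.12 ± 2.35) split the arrays, with arrays 2 and 3 far below 0 and array 4 above it. Its A150 spot on array 2 was below the level of 2467, so the size of the ratio there is uncertain. EMBV3_17412 had 4541, 2758, 6377 and 9316 in A150, against 6481, 11495, 3923 and 6755 in A-, and ratios of -0.68, -2.96, 0.30 and 0.30 (mean -0.76 ± 1.54). On array 2, EMBV3_13893 stood at 2.72 and the other kept MYL12A probes at -3.16 and -2.96, so MYL12A has no single direction here.

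The fourth MYL12A probe, EMBV3_24282, was not kept. Its A150 spots were not well above background on any array, and A- was so on array 4 only, at 731 against a level of 631. MYL12B was measured by EMBV3_43253, with spot means of 5530, 8753, 13104 and 9085 in A150, against 7530, 13439, 3828 and 7304 in A-. Both fractions were well above background on every array. The ratios were -0.65, -0.93, 1.48 and 0.15, with a mean of 0.01 ± 1.08 (SD, n = 4), so the spread between arrays exceeded the mean. Its negative ratios fell on arrays 1 and 2, like those of EMBV3_17412, and on arrays 1 and 2 A150 was in Cy5. With A150 in Cy5 and in Cy3, MYL12B averaged -0.79 and 0.82, a difference of -1.61 (SE 0.64, limma adjusted p = 0.624), and EMBV3_17412 averaged -1.82 and 0.30, a difference of -2.12 (SE 0.92, limma adjusted p = 0.629). The genes MYL12A and MYL12B are closely related, so a probe may pick up both messages and their values are uncertain as measures of 1 gene. This was not tested, since the probe sequences were not used here.

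MYL9, the regulatory light chain best known from smooth muscle, was near the limit of detection. EMBV3_31260 had spot means of 315, 1760, 1212 and 512 in A150, against 1307, 2970, 1483 and 617 in A-. Its A150 spots passed the level on arrays 3 and 4 and its A- spots on arrays 1 and 2, which is the Cy3 channel on all 4 arrays and the Cy5 channel on none. That pattern of detection was found in 6.73% of kept probes. The ratios were -0.15, -0.25, 0.14 and -0.44, with a mean of -0.18 ± 0.24 (SD, n = 4). Of 14 markers of smooth muscle, stroma and endothelium, 4 had a signal above background in 1 and the same fraction on at least 3 arrays (ACTA2, CNN1, VWF and CDH5), and TAGLN, MYH11, DES and COL1A1 did not. The summed spot means of that list ranged from 4166 to 28066 in A150 and from 8616 to 34226 in A-. Of 7 blood cell markers, HBA and HBB were above background in the same way, and their list summed to 2355 to 10945 in A150 and 3406 to 17442 in A-. The part of RNA from such cells in the light chain signals was not tested.

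At the level of single probes, limma called 12 of the 19453 kept probes at an adjusted p under 0.05 (0.0617%), all higher in A-. Before adjustment, 1563 probes on the A150 side and 1061 on the A- side had a p under 0.05. With the brightest kept probe for each gene, limma called 0 of 7795 genes (0%) after adjustment, and before it 758 genes on the A150 side (9.72%) and 327 on the A- side (4.19%) had a p under 0.05.

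The partners of the light chains were then compared between A150 and A- in that fit. Of 97 genes in 8 lists of myosin partners and regulators, 83 were on the array and 40 had a kept probe. By limma 0 of the 40 passed in A150 or in A- after adjustment. Before it, 1 gene on the A150 side (2.5%) and 2 on the A- side (5%) had a p under 0.05. Positive means were found in 15 of 40, with a median of -0.11, against 50.6% of all genes tested and a median of 0.01.

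The non-muscle heavy chains that carry these light chains had small ratios. MYH9 stood at -1.31, 0.36, -0.16 and -0.54 on the 4 arrays (mean -0.41 ± 0.70, limma adjusted p = 0.69) and MYH14 at -0.23, -0.99, 0.37 and -0.49 (mean -0.33 ± 0.57, limma adjusted p = 0.716). Each was positive on 1 array only. MYH9 was above background on 2 arrays in A150 and 1 in A-, and MYH14 on 2 in A150 and 3 in A-, so these ratios rest largely on dim spots, and MYH10 had no kept probe. Among muscle heavy chains, of which 3 of 11 were measured, MYH8 stood at 0.37 ± 0.51 and MYH2 at 0.25 ± 0.94, both with the spread of the arrays across 0. Of the other light chain genes 3 of 8 were measured: the atrial regulatory chain MYL7 at -0.10 ± 0.75 (a second probe at 0.38), the ventricular essential chain MYL3 at -0.03 ± 0.44 and the fast skeletal regulatory chain MYL11 at 0.10 ± 0.30. None of the 3 passed the background level on every array in A150 or in A-.

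Kinases that phosphorylate regulatory light chains were little represented, with 4 of 17 measured. MYLK2 and MYLK3, the skeletal and cardiac light chain kinases, stood at 0.10 ± 0.27 and -0.33 ± 0.46. STK17A, a kinase of the DAPK family, had -0.36, 3.62, -0.84 and 0.67 (mean 0.77 ± 2.00), and PAK1 had 0.33, 1.08, -1.24 and -3.13 (mean -0.74 ± 1.86), with a second PAK1 probe at 0.055. Their arrays lay on both sides of 0, and the first PAK1 probe was positive with A150 in Cy5 and negative with A150 in Cy3.

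The myosin phosphatase, which removes that phosphate, was measured by 5 of 8 genes and held ratios far from 0 on both sides. PPP1R12C, a targeting subunit, was positive on all 4 arrays at 2.35, 1.75, 0.49 and 2.07, with a mean of 1.67 ± 0.82 (SD, n = 4, limma adjusted p = 0.166). Its A150 spots were above background on 3 arrays and its A- spots on 2, so the size of its ratio rests in part on dim spots. PPP1CB, the catalytic subunit, was negative on all 4 at -0.79, -1.92, -4.05 and -1.70, with a mean of -2.11 ± 1.38 (SD, n = 4, limma adjusted p = 0.203). Neither passed after adjustment. PPP1R12A, the best-known targeting subunit, had 1.07, 1.64, -3.84 and -3.83 (mean -1.24 ± 3.01), which is positive with A150 in Cy5 and negative with A150 in Cy3. The inhibitor PPP1R14A stood at 0.14 ± 0.21, with a second probe at -0.081.

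Calmodulin, the calcium sensor that activates light chain kinase and serves as the light chain of many unconventional myosins, was measured by 2 of 4 symbols. CALM3 stood at 0.72 ± 0.96 with further probes at 1.71 and 3.74, and a gene annotated as CALM at -0.66 ± 0.42 (limma adjusted p = 0.393).

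Of 24 unconventional myosins 10 were measured, 4 with a positive mean. MYO1D (0.31 ± 0.31) and MYO5A, a vesicle motor (0.29 ± 0.38), had the smallest p on the A150 side, and MYO1F (-0.32 ± 0.20) and MYO9A (-0.79 ± 1.66) on the A- side. A second MYO5A probe stood at -0.45, on the other side of 0. The smallest limma adjusted p in that list was 0.65. Among tropomyosins and myosin-binding proteins of the cortex 11 of 22 were measured, and 2 had a positive mean. CNN3, an actin-binding calponin, had -3.17, 0.47, -2.21 and -2.62 (mean -1.88 ± 1.62, limma adjusted p = 0.306), and a second probe stood at -1.75. CNN1, the smooth muscle calponin, stood at 1.05 ± 1.01 (limma adjusted p = 0.399), CALD1 at 0.16 ± 0.22 and the tropomyosin TPM2 at -0.39 ± 0.29. CNN1 was above background on 3 arrays in A150 and on 1 in A-, so the size of its ratio is uncertain.

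**Figure D4:**
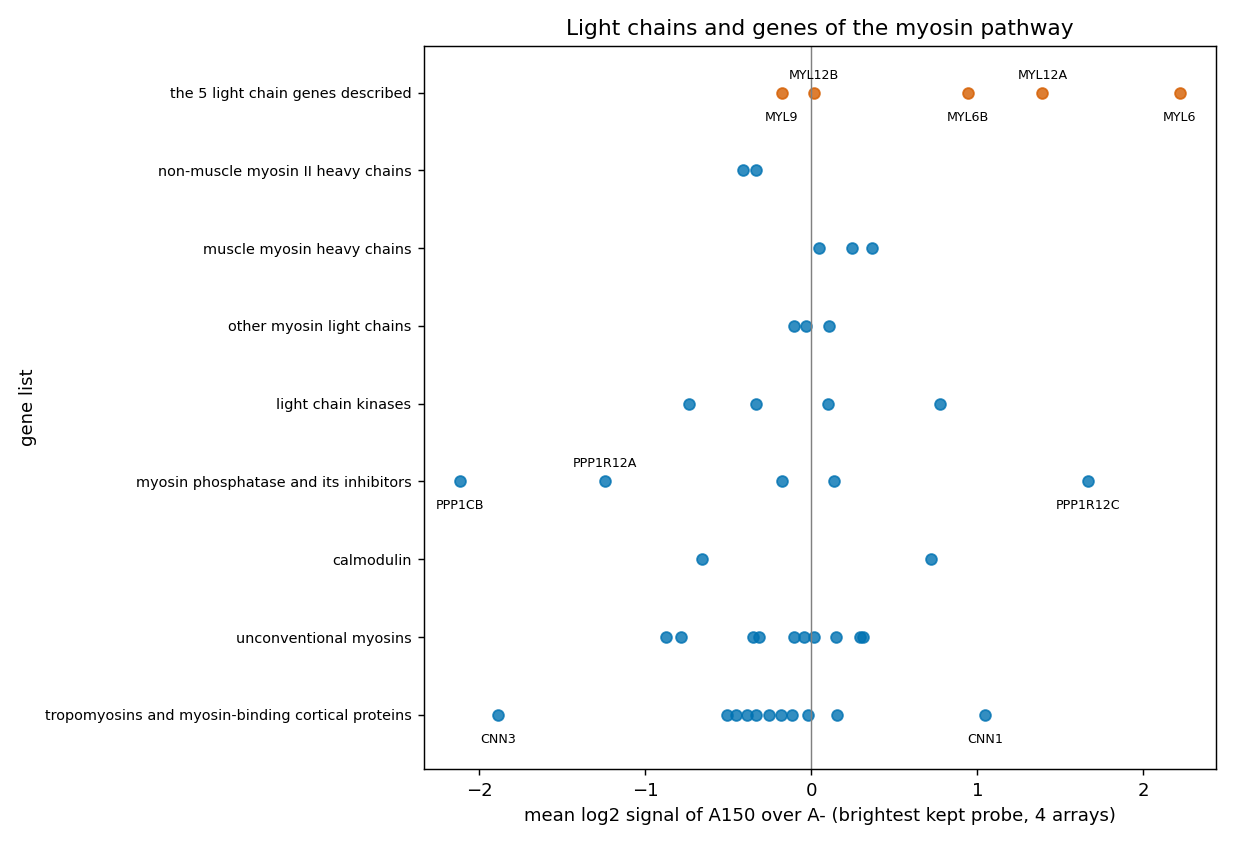
Mean log2 signal of A150 over A- over 4 arrays (x axis) of the brightest kept probe of each gene, for the 5 light chain genes and 8 lists of myosin partners (y axis); genes beyond 1 on either side are named. MYL6 at 2.22 is at the right edge, the heavy chains MYH9 and MYH14, with dim spots, lie at -0.41 and -0.33, and 0 genes of the 8 lists passed limma's test.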

How the data were processed

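For each array the deposited file gives, per the file headers, an intensity for each spot (mean and median) and for the area around it, in a green (Cy3) and a red (Cy5) scan, with nothing subtracted. RNA was parted on poly(A)-binding beads and amplified with WT-Ovation One-Direct, per the labels' protocols, so amplification can shift relative signals. The deposited value table holds log2 ratios made by the authors. They correlated at 0.996 to 0.999 with loess ratios of A150 over A- made without background correction, with medians of -0.011 to 0.020, so their direction is that of the ratios here. Their slopes ran from 0.837 to 1.22, so their scale differs from it between arrays, for a reason that is unknown.

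The 22 rows of a file that name no probe were dropped. Spot means were corrected with normexp (offset 50), which used the median background of the area around each spot. They were normalized within arrays by loess with control spots at weight 0, in limma 3.58.1 under R 4.3.3. Arrays 3 and 4 were turned in sign. The level for calling a spot above background came from 153 negative-control spots, which the normexp correction did not use. Ratios were tested against 0 with limma's lmFit and eBayes, on 3 residual degrees of freedom and with p-values adjusted by Benjamini-Hochberg over all kept probes or genes, and the dye with a second term. The pools are separate per the design text, and p-values measure pools and arrays together. The number of arrays limits the precision.

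Symbols came from the platform annotation, which gives 1 symbol for 21790 probes, several for 0 and none for 22004; 20025 were current in RefSeq, 1524 were updated by a synonym and 241 kept. Coordinates are left out, since no source used here names the build of the array. A gene was represented by its brightest kept probe. The members and the gene lists were chosen with earlier results of these data known. One list of regulators is not reported here. Named partners are up to 2 genes per list and side with the smallest p. Probe sets of MYL6 and the genes with 5 or more probes were chosen after the values were seen. The 1.87-fold of MYL6B came from the single channels, normalized by loess and Aquantile. The alternatives were other background corrections, normalizations, filters and probe rules, spot medians, the authors' ratios, a dye term, single channels and leaving out each array.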

Additional observations from a re-analysis of the deposited data

Results flagged for a closer look

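In 4 of 48 probes and genes named in the text, 1 array lay apart from the other 3 by more than Dixon's critical share of the whole range. The values are a description, with no test: the MYL6 ratios were used to choose the family, so the 5% that chance flags among unselected groups is no measure here. MYL6 was represented by 2 probes, both on array 2. EMBV3_06455 had 2.41 there and 3.42 to 3.56 on the other arrays. EMBV3_31672 had 1.48 there and 3.01 to 3.23 on the other arrays. For both probes the A- spot on array 2 was below its background level. GPC3 had 0.24 on array 4, against 2.62 to 2.96 on the other arrays, and SOD2 had 0.75, against 2.32 to 2.58. This pair was picked for its likeness to EMBV3_22522, which is low on array 4, so that choice favoured a low value there. The A- spot means on array 4 were 2591 for GPC3 and 4790 for SOD2.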

How the results depend on the processing

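The MYL6 ratio stayed positive under every alternative run. For EMBV3_22522, at 2.22, it ranged from 1.79 to 2.94 over 15 alternatives and from 1.96 to 2.73 with 1 array left out. The median over MYL6 probes, at 2.57, ranged from 1.90 without background correction to 3.22, and from 2.36 to 2.84 with 1 array left out. MYL6B stayed positive (0.49 to 1.28) and MYL9 negative (-0.72 to -0.08). MYL12A, at 1.39 by its brightest probe, was -0.16 as the mean over its kept probes. MYL12B, at 0.01, was -0.027 with a normexp offset of 0, -0.032 with spot medians and -0.072 with scaling between arrays, and with 1 array left out it ranged from -0.48 (without array 3) to 0.33 (without array 2), being -0.033 without array 4. No partner of the light chains was called under any of 15 alternatives (0 genes). Single channels with no replicate block were not among these 15. The 12 called probes became 0 without background correction, with median centring, with scaling between arrays, without the filter on dim probes, with the authors' ratios, with the dye term and with any 1 array left out (0 to 0). They became 32 with spot medians, 655 without normalization within arrays (300 higher in A150), 244 among probes that passed the level in A150 and in A- on every array (116 higher in A150) and 201 on single channels without the pairing by array, that is, with no replicate block (77 higher in A150). The 0 called genes became 138 without normalization within arrays, 1 among genes above background in both fractions, 1 with the authors' ratios and 25 on single channels without the pairing. The causes were not tested. In A-, 28 of the 44 MYL6 spots were above background, and the size of the other ratios is uncertain.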
